A study of Mus musculus with 4 samples.

Results

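The 9 genes described here mark B cells: the signalling chains of the B cell receptor Cd79a and Cd79b, the transcription factors Pax5 and Ebf1, the surface proteins Ms4a1, Cr2, Fcer2a and Cd22, and the adaptor Bank1. They were chosen by name, and each matched 1 gene ID, so that 9 of the 29247 gene IDs in the count table are described. Their identifiers are ENSMUSG00000003379 on chromosome 7 for Cd79a, ENSMUSG00000040592 on chromosome 11 for Cd79b, ENSMUSG00000014030 on chromosome 4 for Pax5, ENSMUSG00000057098 on chromosome 11 for Ebf1, ENSMUSG00000024673 on chromosome 19 for Ms4a1, ENSMUSG00000026616 on chromosome 1 for Cr2, ENSMUSG00000005540 on chromosome 8 for Fcer2a, ENSMUSG00000030577 on chromosome 7 for Cd22 and ENSMUSG00000037922 on chromosome 3 for Bank1. All 9 were among the 18715 genes with enough reads to be tested. Of these, 6 were about 10-fold or more higher in Cxcr4+ macrophages sorted from the mouse liver after acetaminophen (APAP) than in control macrophages, and the other 3 were not. Cd79a, Pax5, Ebf1, Ms4a1, Cr2 and Fcer2a were low in the control and higher in all 3 APAP libraries. Cd79b, Cd22 and Bank1 already stood above 20 CPM (read counts scaled to the size of each library) in the control, and Bank1 was lower in APAP.

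The APAP group consisted of 3 libraries of flow-sorted Cxcr4+ macrophages from the liver of C57BL6J mice aged 8 weeks, taken 72 h after an intraperitoneal dose of 300 mg/kg APAP in saline. APAP is a painkiller that kills hepatocytes at high dose. The group it was set against was 1 library of control macrophages from mice of the same strain and age. The labels name the Cxcr4+ sort for the APAP group alone and do not describe the control gate, so APAP and the sort cannot be told apart. Nothing in them tells if each APAP library had its own animal, so every p-value measures the spread between these libraries, which may be technical. The test had 1 control library, which was assumed to vary like the APAP libraries.

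The APAP libraries held 48282283, 52043418 and 56702837 counts and the control 49950909, and 23376 to 23880 genes had reads in the APAP libraries against 18793 in the control. Of all genes tested, 25.4% were called higher and 18.9% lower in APAP at an adjusted p of 0.05 (edgeR). The median log2 fold change over all genes tested was 0.08. Genes that mark macrophages were abundant in every library: 12 macrophage genes summed to 29831.5, 35612.7 and 36616.8 CPM in the APAP libraries, against 63326.5 CPM in the control.

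B cells recognise antigen through a membrane immunoglobulin that has no signalling tail of its own. Its signal is carried by Cd79a and Cd79b, which form a heterodimer, and is raised or damped by co-receptors such as the complement receptor Cr2 and the inhibitory lectin Cd22. Ebf1 and Pax5 set up and hold the B cell programme, and Cd79a is a textbook target of both. In the liver, B cells are found among the lymphocytes of the sinusoids, beside the Kupffer cells, which are the resident macrophages.

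The receptor chains behaved differently from each other. Cd79a had 28.2, 50.1 and 31.5 CPM in the APAP libraries, against 3.36 CPM in the control. Every APAP library lay above the control, the second one highest. Its mean of 36.6 ± 11.8 CPM (SD, n = 3) was 10.9-fold the control level, a log2 fold change of 3.44 (edgeR, SE 0.42, adjusted p = 0.00262). Cd79b had 36.7, 44.1 and 35 CPM in APAP libraries and 23.8 CPM in the control. Here too the control lay below every APAP library, but much closer to them. The fold was 1.62 and the log2 fold change 0.70 (edgeR, SE 0.16, adjusted p = 0.0175). Fewer cells of a type and less RNA per cell cannot be told apart in such bulk libraries, for these genes and for all that follow. The part that B cells among the sorted cells had in these levels was not tested.

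The imbalance between the chains can be read directly from the counts. Cd79a took 1417 of 3263 reads of the pair in the first APAP library, which is 43.4% (exact Clopper-Pearson 95% interval 41.7% to 45.1%). Its share was 53.2% in the second and 47.3% in the third APAP library, against 12.4% (10.6% to 14.4%) in the control. Both genes have annotated exons of similar total length, 1457 and 1431 bases. Per kilobase of exon, the level of Cd79a was 0.754, 1.12 and 0.882 times that of Cd79b in the APAP libraries, against 0.139 times that of Cd79b in the control. The control thus held Cd79b reads that were not matched by Cd79a reads.

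Both transcription factors were higher in APAP. Pax5, which commits precursors to the B lineage, had 25.2, 47.7 and 28.7 CPM in APAP libraries and 2.56 CPM in the control. All APAP libraries were above the control, and the second was the highest. Pax5 averaged 33.9 ± 12.1 CPM (SD, n = 3) in APAP, with a log2 fold change of 3.73 (edgeR, SE 0.47, adjusted p = 0.00292). Ebf1, which opens B cell genes in precursors, had 4.68, 8.86 and 6.16 CPM in the APAP libraries, against 0.401 CPM, or 18 reads, in the control. The exact Poisson 95% interval of that control level, 0.237 to 0.633 CPM, lay below every APAP library. The log2 fold change of Ebf1 was 4.03 (edgeR, SE 0.52, adjusted p = 0.00306). Annotated exons of 5730488B01Rik and Gm12462 lie opposite those of Pax5. Their own counts were 0 to 18 reads in any library, beside 1267 to 2563 Pax5 reads in the APAP libraries, against 115 in the control. The strand setting of the counting is not given in the sources used here.

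**Figure D1:**
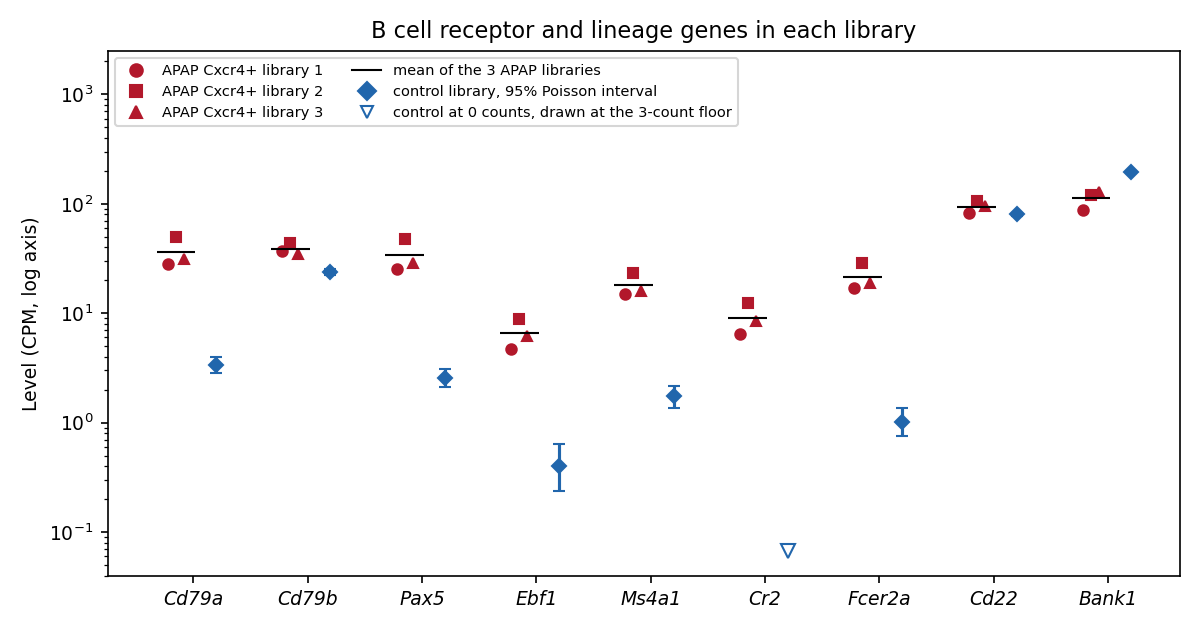
Level of the 9 genes in each library, in CPM on a log axis; red symbols are the 3 APAP Cxcr4+ libraries, the black line their mean, and the blue diamond the control library with its exact 95% Poisson interval. Cr2 had 0 counts in the control and is drawn at the level of 3 counts. The control lies below all APAP libraries for 8 genes and above them for Bank1.

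The surface proteins Ms4a1, Fcer2a and Cr2 were higher in APAP, like Cd79a. Ms4a1 encodes CD20, a membrane protein of B cells from the precursor to the memory stage. It had 15.1, 23.4 and 16.1 CPM in the APAP libraries, against 1.74 CPM in the control. The libraries of the groups did not overlap, and the log2 fold change was 3.39 (edgeR, SE 0.35, adjusted p = 0.00183). Fcer2a encodes CD23, the low-affinity IgE receptor of mature follicular B cells. It had 17.1, 28.8 and 18.8 CPM in APAP libraries and 1.02 CPM in the control, with a log2 fold change of 4.39 (edgeR, SE 0.44, adjusted p = 0.00168). Every APAP library was above the upper Poisson limit of the control, 1.37 CPM.

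Cr2 encodes the complement receptors CR2 and CR1 of the mouse, which marginal zone and follicular B cells and follicular dendritic cells carry. It had 323, 664 and 502 reads in the APAP libraries, or 6.43, 12.4 and 8.57 CPM, and 0 reads in the control. Set against a floor of 3 reads in the control library, the mean of the APAP libraries, 9.12 ± 3 CPM (SD, n = 3), was at least 137-fold higher (adjusted p = 0.00146, edgeR).

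Cd22 and Bank1 were the exceptions. Cd22, a sialic acid binding lectin that damps B cell receptor signalling, had 82.1, 106 and 95.1 CPM in the APAP libraries, against 80.2 CPM in the control. The first APAP library lay inside the Poisson interval of the control, 77.6 to 82.8 CPM. The log2 fold change of 0.23 (95% interval -0.14 to 0.61) did not pass the test (adjusted p = 0.247, edgeR). Without the first APAP library it was 0.32, with an adjusted p of 0.0219. Annotated exons of Gm29439 lie opposite those of Cd22.

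Bank1, an adaptor that links the B cell receptor to calcium release, had 88.4, 121 and 128 CPM in APAP libraries and 196 CPM in the control. All APAP libraries were below the control, and the third, not the second, was the highest of them. The log2 fold change was -0.80 (edgeR, SE 0.20, adjusted p = 0.0226). This call was lost without the second APAP library (-0.86, adjusted p = 0.0583) and without scaling factors (-0.60, adjusted p = 0.0518).

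Over the 9 genes, 7 were called higher and 1 lower, beside 25.4% and 18.9% of all genes tested. Their median log2 fold change was 3.44, beside 0.08 over all genes tested. For 8 of the 9 genes every APAP library was above the control, which held for 45.7% of all genes tested, and for 1 every APAP library was below it, which held for 39.2%. Against a fold of 2 as the null (glmTreat), 6 of the 9 remained called higher, and Cd79b and Bank1 were no longer called. The calls of Cd79a, Pax5, Ebf1, Ms4a1, Cr2 and Fcer2a held in each of the 13 alternatives, with a highest adjusted p of 0.027, that of Cr2.

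The summed level of the 9 genes did not separate the groups. Together they had 304, 442 and 368 CPM in the APAP libraries, against 309 CPM in the control, so the first APAP library lay below the control. Bank1 made up 29.1%, 27.3% and 34.8% of the sum in APAP libraries and 63.4% in the control. The share of Cd79a was 9.28%, 11.3% and 8.55% in the APAP libraries, against 1.09% in the control. Cd22 kept a similar place, with 27%, 24% and 25.8% in APAP libraries and 25.9% in the control.

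Per kilobase of exon, the order of the genes also changed. In the first and the third APAP library Cd79b led with 25.7 and 24.5 CPM per kilobase, followed by Cd79a with 19.4 and 21.6 and by Cd22 with 16.3 and 18.9. The 2 chains changed places in the second APAP library, where Cd79a led with 34.4 CPM per kilobase, ahead of Cd79b with 30.8. In the control Bank1 led with 26.2 CPM per kilobase, ahead of Cd79b with 16.6 and Cd22 with 15.9, followed by Cd79a with 2.31. Below these 4 genes, all libraries gave the order Fcer2a, Pax5 and Ms4a1, with Ebf1 and Cr2 last. Fcer2a had 5.52, 9.32 and 6.08 CPM per kilobase in the APAP libraries, against 0.331 in the control. In the control, Fcer2a, Pax5 (0.289) and Ms4a1 (0.281) lay close together, and the Poisson intervals of their CPM are wide there.

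Ratios between genes within a library do not depend on its total. The pairs compared here were chosen after the values had been seen, and their intervals cover counting error only. Ms4a1 kept nearly the same proportion to Cd79a everywhere: 34.8%, 31.9% and 33.8% of the reads of both genes in the APAP libraries, against 34.1% (27.9% to 40.6%) in the control. The share of Pax5 beside Cd79a was 47.2%, 48.8% and 47.7% in APAP libraries and 43.2% (37.2% to 49.4%) in the control. The share of Ebf1 beside Pax5 was 15.6%, 15.7% and 17.7% in the APAP libraries, against 13.5% (8.22% to 20.5%) in the control. For these 3 pairs the control interval covered all 3 APAP values, although the levels themselves differed about 10-fold or more.

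Other pairs did not keep their proportion. The share of Fcer2a beside Cd79a was 37.7%, 36.5% and 37.4% in the APAP libraries, against 23.4% (17.6% to 29.9%) in the control. That of Cr2 beside Fcer2a was 27.4%, 30% and 31.3% in the APAP libraries, against 0 of 46 reads in the control, for which the exact interval reaches 7.71%. Cd22 took 74.4%, 67.9% and 75.1% of its reads together with Cd79a in APAP libraries and 96% (95.3% to 96.6%) in the control. For Bank1 the shares beside Cd79a were 75.8%, 70.6% and 80.3% in the APAP libraries, against 98.3% (98% to 98.6%) in the control. In the control, reads of Cd22, Bank1 and Cd79b thus stood far above the proportion to Cd79a seen in the APAP libraries, and reads of Fcer2a and Cr2 below it.

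**Figure D2:**
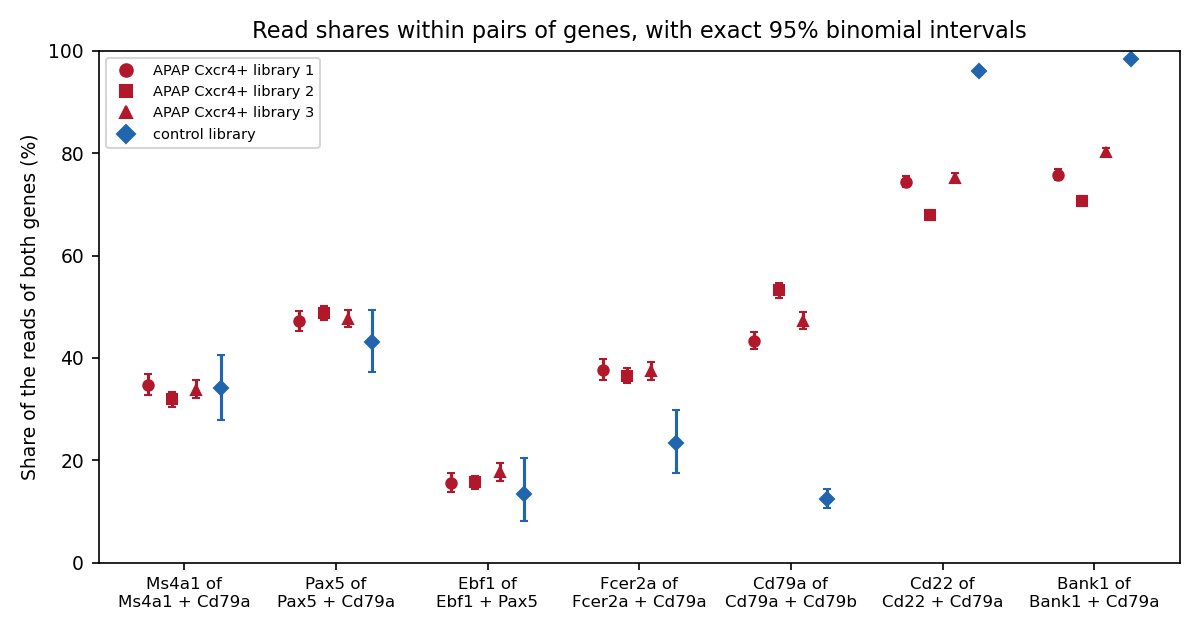
Share of the reads of 2 genes that fell on the first one, in percent, with exact 95% binomial intervals; red symbols are the 3 APAP Cxcr4+ libraries and blue diamonds the control. The shares of Ms4a1, Pax5 and Ebf1 lie close together in all libraries, while those of Cd79a beside Cd79b, and of Cd22 and Bank1 beside Cd79a, set the control apart.

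Promoter sequences are shown for Cd79a and Cr2, which were higher in APAP, for Cd22, which was not called, and for Bank1, which was lower. They are the 250 bases before the start of each gene in RefSeq (GRCm38.p6), 5′ to 3′ on the strand of the gene: chr7:24897247-24897496 on the plus strand for Cd79a, chr1:195176720-195176969 on the minus strand for Cr2, chr7:30879029-30879278 on the minus strand for Cd22 and chr3:136326067-136326316 on the minus strand for Bank1. Capitals mark matches, on either strand, to the 5 motifs searched for.
Cd79a: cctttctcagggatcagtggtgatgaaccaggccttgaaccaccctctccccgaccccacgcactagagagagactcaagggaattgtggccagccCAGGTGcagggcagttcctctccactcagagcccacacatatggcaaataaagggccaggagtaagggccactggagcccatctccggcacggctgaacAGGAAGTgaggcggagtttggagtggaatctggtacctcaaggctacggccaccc
Cr2: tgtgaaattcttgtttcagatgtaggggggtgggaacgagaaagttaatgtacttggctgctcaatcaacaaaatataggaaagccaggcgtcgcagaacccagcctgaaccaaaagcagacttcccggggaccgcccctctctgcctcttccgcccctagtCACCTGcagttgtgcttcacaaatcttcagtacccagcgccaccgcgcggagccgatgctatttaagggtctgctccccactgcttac
Cd22: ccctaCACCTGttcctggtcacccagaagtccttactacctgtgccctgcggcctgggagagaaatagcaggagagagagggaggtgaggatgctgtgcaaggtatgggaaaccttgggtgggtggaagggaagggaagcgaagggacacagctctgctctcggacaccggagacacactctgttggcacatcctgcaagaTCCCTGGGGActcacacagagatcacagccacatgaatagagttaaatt
Bank1: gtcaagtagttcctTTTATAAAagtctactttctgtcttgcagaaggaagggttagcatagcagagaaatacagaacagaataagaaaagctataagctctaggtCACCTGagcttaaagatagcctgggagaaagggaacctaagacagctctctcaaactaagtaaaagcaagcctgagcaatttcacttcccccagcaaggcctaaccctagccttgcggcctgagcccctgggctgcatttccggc

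The motifs were the EBF1 palindrome (TCCC and GGGA parted by NN), the octamer ATGCAAAT of the POU factors of B cells, the E-box CAGGTG that E proteins bind, the Ets core AGGAAGT and the TATA motif TATAAA. RefSeq starts were found for 7 of the 9 genes, 10 starts in all; Ms4a1 and Cd79b were not matched. The E-box was present in 5 of the 7 genes (Cd79a, Cr2, Fcer2a, Cd22 and Bank1), beside 17.2% of all 32851 mouse promoters in the same table. Genes with several starts had more than 1 window in which to match. The EBF1 palindrome was found in Cd22, 49 bases before its start, beside 0.779% of all promoters. Only exact matches to the letters of each motif were counted. A site that departs from them, in Cd79a or any other gene, would be missed. The Ets core was found in Cd79a, 55 bases before its start, beside 7.69% of all promoters. The octamer was in none of the 7 genes, beside 1.6% of all promoters. TATAAA was in Fcer2a, 33 bases before a start, and in Bank1, beside 12.4% of all promoters. The Bank1 matches overlapped on both strands and lay 234 and 236 bases before its start. The E-box was thus present in genes called higher, in Cd22 and in Bank1, and in no Pax5 or Ebf1 window, so the matches did not sort the genes by their direction.

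The 9 genes also varied between the APAP libraries. For 8 of them the second APAP library was the highest, the exception being Bank1. Relative to the mean of the 3 APAP libraries, Pax5 stood at 74.4%, 141% and 84.8%, Cd79a at 77.1%, 137% and 86% and Cr2 at 70.5%, 136% and 93.9% in the first, the second and the third library. Cd79b, at 95.1%, 114% and 90.7%, and Cd22, at 87%, 112% and 101%, spread less. The coefficient of variation was 25.1% to 35.7% for the 6 genes under 5 CPM in the control and 12.4% to 18.8% for Cd79b, Cd22 and Bank1.

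For markers of other cells the highest APAP library was not always the second. The T cell chain Cd3e stood at 103%, 113% and 84.7% of its APAP mean and the NK cell receptor Klrd1 at 72.4%, 118% and 109%, both highest in the second. Not all genes of their lists did so. The T cell genes Cd3d, Cd8a and Cd8b1 and the NK cell genes Gzma, Prf1 and Nkg7 were highest in the first. Cd8a had 15.3, 10.2 and 6.5 CPM and Gzma 14.1, 7.2 and 4.47 CPM in the APAP libraries. Elsewhere the peak lay in another library, with the plasmacytoid dendritic cell lectin Siglech at 99%, 72.3% and 129%, and the neutrophil gene S100a8 at 175%, 90.9% and 34.1%. The macrophage receptor Csf1r, at 82.6%, 104% and 114%, and Bank1, at 78.7%, 107% and 114%, both had their lowest value in the first and their highest in the third library. These are descriptions of 3 libraries, and no relation between genes was tested.

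**Figure D3:**
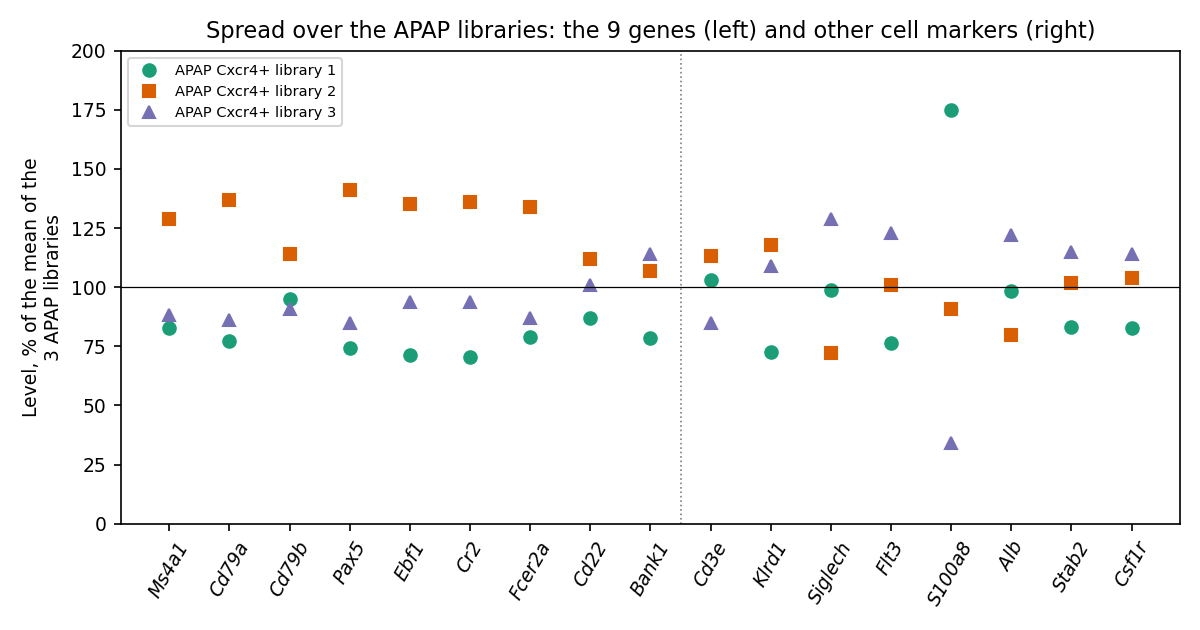
Level in each APAP Cxcr4+ library as a percentage of the mean of the 3 APAP libraries, for the 9 genes left of the dotted line and for markers of other cells right of it. The second library (orange squares) is the highest for 8 of the 9 genes and for Cd3e and Klrd1, while S100a8 peaks in the first and Siglech, Flt3, Alb, Stab2 and Csf1r in the third.

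The genes whose profile over the 4 libraries was nearest to the mean profile of the 9 genes were ranked by the root mean square difference of centred log2 CPM. The mean profile was 0.43, 1.11 and 0.66 in APAP libraries and -2.21 in the control. Nearest were Edaradd, with a difference of 0.02, and Gpr34, with 0.06. Edaradd had 1.27, 2.12 and 1.52 CPM in the APAP libraries, against 0.178 CPM in the control. Gpr34 had 2.43, 4.11 and 2.66 CPM in APAP libraries and 0.356 CPM in the control. Fcrla, an Fc receptor-like protein of B cells, followed with 0.07, then B3galt2, Samd5, Endou and Sv2a with 0.08 each. Of these, B3galt2, Samd5 and Sv2a were at 0 in the control and at no more than 0.372 CPM in any APAP library. Their profiles thus rest on few reads. The eighth was Gdf15, a stress-induced cytokine, with 0.10 and levels of 26.3, 36.4 and 28.2 CPM in the APAP libraries, against 4.27 CPM in the control.

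The antigen-binding partner of the Cd79 chains was higher as well. All 6 immunoglobulin constant genes tested were called higher, with a median log2 fold change of 2.71. Ighm, the IgM heavy chain, had 148, 216 and 181 CPM in APAP libraries and 23.2 CPM in the control (edgeR log2 fold change 2.97, SE 0.25, adjusted p = 0.00121). Ighd, the IgD heavy chain of mature naive B cells, had 33.7, 62.8 and 37.5 CPM in the APAP libraries, against 4.07 CPM in the control (log2 fold change 3.46, SE 0.45). Igkc, the kappa light chain, had 114, 163 and 162 CPM in APAP libraries and 13.4 CPM in the control (3.46, SE 0.27). Every APAP library was above the control for these genes, which held for 45.7% of all genes tested. Reads of near-identical immunoglobulin segments may be split or shared by the counting. Ighd took 18.6%, 22.5% and 17.2% of the reads of Ighm and Ighd in the APAP libraries, against 14.9% (13% to 17%) in the control.

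Among 25 other surface genes of B cells, 16 were called higher, 5 lower and 4 were not called, with a median log2 fold change of 2.11. Siglecg, another inhibitory lectin of B cells, had 13.3, 19.1 and 15.1 CPM in the APAP libraries, against 0.312 CPM in the control, with a log2 fold change of 5.66 (edgeR, SE 0.37, adjusted p = 0.000933). Tlr9 (a receptor for microbial DNA, 2.22) and Tnfrsf13b (the BAFF and APRIL receptor TACI, 2.11) were also higher. The 5 lower genes were Cd72, Cd40, Cd83, Ly86 and Cd1d1, with log2 fold changes of -1.06, -1.20, -1.60, -0.66 and -1.55. In the control none of these 5 was under 32 CPM. Cd72, a receptor of B cells, had 73.9, 104 and 105 CPM in APAP libraries and 196 CPM in the control. The summed level of the 25 genes was 1117.8, 1306.5 and 1192.2 CPM in the APAP libraries, against 1384.6 CPM in the control.

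The cascade behind the receptor was mixed. Of 25 genes of B cell receptor signalling, 13 were called higher, 3 lower and 9 were not called, with a median log2 fold change of 0.32. The adaptor Blnk had 81.9, 72.5 and 76.4 CPM in APAP libraries and 10.8 CPM in the control, with a log2 fold change of 2.83 (edgeR, SE 0.13, adjusted p = 0.000841). Malt1 (1.41), which carries the signal to NF-kappaB, and the inhibitory Fc receptor Fcgr2b (1.52) were also higher. Blnk was lowest in the second APAP library, unlike Cd79a. The lower genes were the tetraspanin Cd81 (-1.89), the adaptor Grb2 (-0.43) and the phosphatase Ptpn6 (-0.34). Without the second APAP library 8 genes were called higher and 1 lower, and with a trend over exon length taken out 6 were higher and 1 lower.

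Of 25 transcription factors of B cells, 17 were called higher, 3 lower and 5 were not called, with a median log2 fold change of 0.79. Bcl11a, a zinc finger factor of early lymphoid cells, had 13.6, 16.8 and 15.8 CPM in the APAP libraries, against 0.49 CPM in the control, with a log2 fold change of 4.97 (edgeR, SE 0.26, adjusted p = 0.000841). Mef2c (3.81), Spib (3.67) and Ikzf3 (3.32), which with Bcl11a had the smallest p-values of the list, were also higher. Klf2, which keeps lymphocytes quiescent (-1.83), Spi1, the PU.1 factor of macrophages and B cells (-0.80), and the E protein inhibitor Id3 (-0.72) were lower. With the trend over exon length taken out, 5 of these genes were lower.

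Lists for stages and subsets of B cells were mixed. Of 14 precursor genes 9 could be tested, of which 7 were called higher and 1 lower. The median log2 fold change of these 9 was 3.65. Among the higher ones, Dntt, the terminal transferase of lymphocyte precursors, had 103, 56 and 109 reads in the APAP libraries, against 0 in the control, at least 24.7-fold higher against 3 reads (adjusted p = 0.00347, edgeR). Vpreb3 had 50, 42 and 42 reads in APAP libraries and 2 in the control. The interleukin 7 receptor chain Il7r (2.19), Sox4 (1.83), Cecr2 (3.65) and Myb (4.29) were higher too, with these log2 fold changes. Other precursor genes were near 0 or not called. The recombinase gene Rag1 had 2, 1 and 0 reads in the APAP libraries, against 0 in the control, Rag2 had 0 in all, and Vpreb1, a surrogate light chain gene, had 8, 15 and 6 reads in APAP libraries and 10 in the control. In the APAP libraries the sum of this list, 664, 485 and 490 CPM, was mostly Cd93, which monocytes and endothelial cells also carry, at 634, 455 and 460 CPM. In the control the sum was 23 CPM and Cd93 had 8.54 CPM. The lower gene, the endothelial factor Erg (-0.73), was not called without the second APAP library (-0.76, adjusted p = 0.0709, edgeR). Of 12 plasma cell genes, 6 were higher and 2 lower (1 lower without the second APAP library), and of 16 genes of B1 and marginal zone B cells, 11 were higher and 2 lower. Jchain, the joining chain of secreted IgM and IgA, had 14.4, 22.3 and 27.2 CPM in the APAP libraries, against 1.76 CPM in the control, with a log2 fold change of 3.60 (edgeR, SE 0.45, adjusted p = 0.00272). Slamf7 (4.41) and Prdm1 (2.10), a factor of plasma cells and other leukocytes, were also higher. The lower plasma cell genes were the secretory factor Xbp1 (-0.69) and Creld2 (-0.81), the call of Creld2 being lost without the second APAP library (-0.66, adjusted p = 0.0663, edgeR). The plasma cell genes Sdc1 (-0.33), Tnfrsf17 (-0.02), Txndc5 (-0.14) and Eaf2 (1.07) were not called. In the B1 and marginal zone list, Ahnak (4.65), Ccr1 (3.92) and Plxnd1 (1.42) were among the higher genes, and Plac8 (-1.76) and Asb2 (-0.90) were the lower ones. In the APAP libraries the sum of this list, 1584.7, 1403.2 and 1232.6 CPM, was mostly Ahnak, Myof and Plxnd1. Ahnak had 605, 485 and 358 CPM and Myof 404, 335 and 324 CPM there, both highest in the first library, unlike Cd79a. The part of other cells in these levels was not tested. Together the lists beyond the 9 genes held 122 genes, of which 117 were tested, 75 called higher and 16 lower, with a median of 0.92. Over all genes tested, 25.4% were called higher and 18.9% lower, with a median of 0.08. In the control, 95 of the 122 genes reached 1 CPM.

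**Figure D4:**
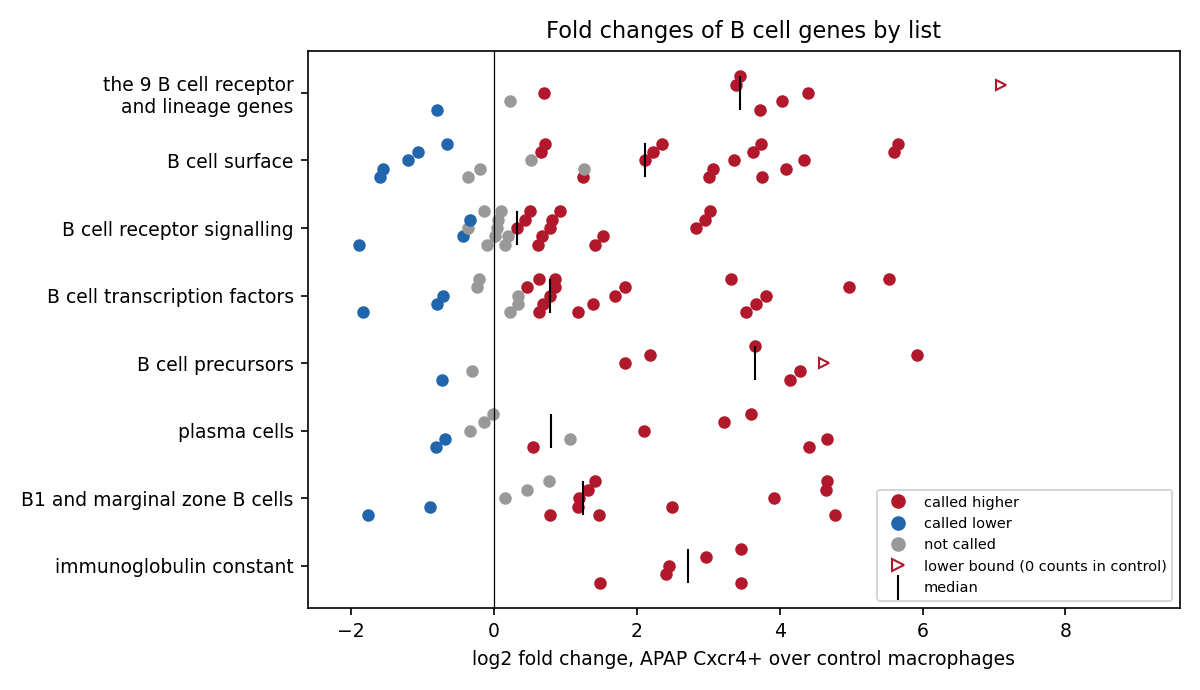
Log2 fold change (APAP Cxcr4+ over control macrophages) of each tested gene in the 9 genes and in 7 further B cell lists. Red points were called higher, blue lower and grey not called, and black bars are medians. Cr2 and Dntt had 0 counts in the control and are drawn as open triangles at the lower bound against 3 counts. The medians were 3.65 for the precursor genes, 3.44 for the 9 genes and 2.71 for the immunoglobulin genes. These lie to the right of the median of the signalling genes, 0.32.

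Markers of the other cells that a liver sort can hold moved in both directions. Among all genes tested, 25.4% were called higher and 18.9% lower. Of 10 T cell genes 7 were called higher, with sums of 148, 160 and 119 CPM in APAP libraries and 70.4 CPM in the control; Cd3e, at 14.2, 15.6 and 11.8 CPM in the APAP libraries, against 9.23 CPM in the control, did not pass (edgeR log2 fold change 0.59, adjusted p = 0.059), but passed without the third APAP library (0.71, adjusted p = 0.0143). Of 8 NK cell genes 4 were higher and 1 lower, 2 higher without the second APAP library. Their sums were 68.6, 71.9 and 57.4 CPM in APAP libraries and 66.5 CPM in the control. Klrk1, the gene called lower, alone accounted for 53.3 CPM of the latter, beside 23.9, 32.3 and 28 CPM after APAP. With Klrk1 included, the NK cell sums hide the increase of the genes called higher. Plasmacytoid dendritic cells share Spib, Tcf4 and Ly6d with the B cell lists. Of their 10 genes 8 were higher and 1 lower, with sums of 327, 331 and 354 CPM in the APAP libraries, against 384 CPM in the control. Most of the control sum was the lower gene, Bst2, at 288 CPM, against 129, 108 and 125 CPM in the APAP libraries. The sum therefore does not show the rise of the higher genes. Siglech, their defining lectin, had 18, 13.2 and 23.5 CPM in APAP libraries and 0 reads in the control, at least 273-fold higher against 3 reads.

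The 8 genes of conventional dendritic cells were higher in 6 cases and lower in 1, with sums of 93.1, 113 and 125 CPM in the APAP libraries, against 85 CPM in the control. Most of that control sum was the lower gene, Batf3, at 57.3 CPM, against 21.1, 23.3 and 26.4 CPM in the APAP libraries. Of 8 neutrophil genes 7 were tested, of which 4 were higher. All 8 together had sums of 111, 69.4 and 35.9 CPM in APAP libraries and 5.56 CPM in the control, where 3 of the 8 were at 0. Of 10 hepatocyte genes 9 were lower, with sums of 353, 273 and 458 CPM in the APAP libraries, against 953 CPM in the control. Among 12 macrophage genes 9 were lower and 1 was higher, a call that was lost without the second APAP library. Sinusoidal endothelial genes gave 2 higher and 3 lower of 8, with 1 higher when the second or the third APAP library was left out, and stellate cell genes 2 higher and 4 lower of 9. The higher calls of the endothelial and stellate cell lists were near the share of all genes tested that were called higher, 25.4%. The part of any of these cells in the levels of the 9 genes was not tested.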

How the data were processed

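RNA was sequenced from 3 APAP Cxcr4+ macrophage libraries and 1 control macrophage library, per the labels' protocols with TRIZOL extraction and the Tecan universal plus mRNA-seq kit. The authors deposited unnormalized read counts, whole numbers for each Ensembl gene. HISAT2, Subread and build mm39 are named, per the submitters' processing notes; the sources used here do not give their roles and versions, the annotation or the strand setting. The APAP columns carry no replicate number and were numbered in table order.

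Of 29247 gene IDs, 28926 (98.9%) were matched to a symbol in gene tables of the mouse genome. The test was that of edgeR 4.0.16 (R 4.3.3): filterByExpr (minimum count 10, minimum total 15), trimmed mean of M-values factors (1.041, 1.033 and 1.034 for APAP, 0.9 for the control), the quasi-likelihood test without covariates and Benjamini-Hochberg adjustment over all 18715 genes tested, called at 0.05. The spread comes from the 3 APAP libraries (2 residual and 3.8 prior degrees of freedom, common biological coefficient of variation 0.162). CPM use the scaled totals. The code was tested on simulated data. Poisson and binomial intervals, bounds and the floor of 3 counts cover counting error only, at 95%. The 95% interval of the Cd22 log2 fold change comes from the SE of the edgeR fit and also carries the spread between libraries. Exon lengths came from GENCODE M21 and promoters from RefSeq, both of build GRCm38, another build than that of the counts; coordinates are given for promoters alone, in GRCm38.p6.

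The members, lists and tests were chosen with earlier results of these data known. The rule for genes to be named took all 9 members, per B cell list the 4 smallest p-values and every lower gene, per other list its first 2 entries (not all printed), and the 8 genes nearest in profile; genes outside this rule were picked after their values were seen. Some genes of these lists are counted in the totals but not reported here by name. Alternatives were DESeq2 1.42.0 (size factors, Wald test), upper-quartile and no factors, no filter, a 5 CPM filter, limma-voom 3.58.1, glmTreat, leaving out each APAP library, leaving out hepatocyte, mitochondrial and ribosomal protein genes, and, added after seeing the data, taking out a trend over exon length. Counts differed between all libraries beyond sampling noise (chi-square over its degrees of freedom 16.5 to 56.7 within APAP, 356 to 405 with the control).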

Additional observations from a re-analysis of the deposited data

How the results depend on the processing

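The 9 genes gave 7 calls higher and 1 lower, and leaving out 1 APAP library gave 7 to 8 higher and 0 to 1 lower; without the second library 0 were lower. The lower call, Bank1, also ended with no scaling factor (0 lower) and with glmTreat (0 lower). With glmTreat, the other B cell lists had 45 genes higher and 4 lower, and leaving out 1 library gave 64 to 78 higher and 12 to 17 lower. Over all genes, 4758 were higher and 3537 lower (57.4% of calls higher). That became 3097 higher with a 5 CPM filter, 1099 higher and 280 lower with glmTreat, and 2343 lower with no scaling factor. Leaving out 1 library gave 2979 to 5195 higher and 2022 to 4185 lower, the fewest without the second. With no scaling factor 72.2% of calls were higher, since the median of all genes shifted by 0.20 on the log2 scale. A turn of direction was looked for only in the genes taken by the rule for names, and was found for Reln and Kdr. Reln, 0.12 as reported, ran from -0.03 to 0.29 when 1 library was left out (-0.03 without the second). It was -0.91 with the exon length trend taken out. Kdr, 0.41 as reported, was at -0.05 with that trend taken out. The cause was not tested. Fold changes rose with exon length across genes (Spearman rho 0.223 over 18644 genes), and with the trend taken out Cd79a was at 3.77, Cd79b at 1.02 and Bank1 at -1.16. Depth limits Ebf1, Fcer2a and Cr2 in the control, with 18, 46 and 0 reads. No paired analysis was possible because the control is a single library and the columns carry no replicate number.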
